A study of Arabidopsis thaliana with 9 samples.

Results

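The autonomous pathway of *Arabidopsis thaliana* is a group of genes that keep the floral repressor gene *FLC* low and so allow flowering without winter cold. The values below describe 6 of its genes besides *FCA*, chosen by locus, which are *FPA* (AT2G43410), *FY* (AT5G13480), *FLK* (AT3G04610), *FLD* (AT3G10390), *LD* (AT4G02560) and *FVE* (AT2G19520). All 6 of 6 were in the transcript index, which holds 33603 loci, and together they have 11 of its 41683 transcript models. The study sequenced 9 libraries, each made from 20 embryos dissected at the early heart stage, by Smart-seq2, which amplifies full-length cDNA from little RNA. The genotypes were Col *FRI* (3 libraries), which carries an active allele of the *FLC* activator *FRIGIDA*, 35S::*FCA* (3 libraries), a Col-0 transgenic line that expresses *FCA* from the constitutive 35S promoter, and Col-0 (3 libraries), the accession that lacks active *FRI*. The parents of Col *FRI* embryos had 6 weeks of vernalization, and none is recorded for those of the other genotypes. The allele and the cold therefore cannot be told apart. The labels call the libraries biological replicates and say no more about their origin, so p-values measure the spread between these samples.

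The pathway acts on *FLC* through RNA 3′ end processing and through chromatin. *FPA* encodes an RNA-binding protein with a SPOC domain that promotes the use of promoter-proximal poly(A) sites, *FY* encodes a WD-repeat subunit of the cleavage and polyadenylation complex that binds FCA, and *FLK* encodes a KH-domain RNA-binding protein. *FLD* encodes a homologue of the human histone demethylase LSD1, *LD* encodes a homeodomain protein, and *FVE*, also called *MSI4*, encodes a WD-repeat protein of the MSI1 family found in histone deacetylase complexes. Mutants of these genes flower late with high *FLC*, and vernalization removes the delay.

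None of the 6 genes passed the gene-level test for a difference between genotypes. Of all genes, 13.3% passed in Col *FRI* against Col-0, 12.9% in Col *FRI* against 35S::*FCA* and 1.52% in 35S::*FCA* against Col-0. Use of transcript models could be tested only for the 3 genes with more than 1 model, and none passed (1.85, 2.15 and 0.435% of 3679 genes did, in the same order). The gene-level test was edgeR's quasi-likelihood test on counts summed per gene, with a Benjamini-Hochberg adjusted p under 0.05 over 18585 genes. All 6 passed its filter on low counts. Every 95% interval of a log2 fold change, over 18 gene and genotype comparisons, lay between -0.33 and 0.56. In the same fit *FLC* was higher in Col *FRI* than in Col-0 by a log2 fold change of 2.59 (edgeR adjusted p = 1.92e-07), and *FCA* was higher in 35S::*FCA* than in Col-0 by 0.76 (edgeR adjusted p = 0.032). Summed counts are not corrected for transcript length, and *FLC* passed the isoform usage test for that pair (edgeR adjusted p = 5.45e-09). On TPM, the length-corrected level defined below, *FLC* averaged 134 for Col *FRI* libraries against 32.2 for those of Col-0. How far transcript length enters the 2.59 was not tested.

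Estimated counts per library ranged from 15166826 to 25847613 over the 9 libraries, and the 6 genes had 137 to 4282 counts per library. The share of TPM (a level corrected for transcript length and scaled to the same total in each library) that fell to protein-coding and other long nuclear transcripts was 57.7 to 60.3% in Col *FRI*, 65.3 to 68.9% for 35S::*FCA* and 51.9 to 70.6% for Col-0. In a gene-by-gene chi-square comparison of replicate pairs, where sampling noise alone gives a scaled median of 1, Col *FRI* pairs had 1.15 to 1.63, 35S::*FCA* pairs 3.05 to 15.3 and Col-0 pairs 7.26 to 21.9. The expected split came from summed counts, organelle and ribosomal ones included, without TMM factors. A difference in nuclear share between paired libraries therefore also raises this value, which is not a measure of gene-level spread alone. Col-0 replicate 3 had the lowest nuclear share, 51.9%, and the lowest TPM among Col-0 libraries for 6 of the 6 genes. When TPM was taken over nuclear genes alone, it was the lowest for 0 of the 6. Within 35S::*FCA*, replicate 1 was the lowest for 6 of the 6 in TPM and for 5 of the 6 in nuclear TPM. Of 9 embryo markers, 8 had a mean of at least 1 TPM in each genotype, and *ESR1* was near or at 0. Endosperm markers summed to 2.92 to 3.25 TPM in Col *FRI*, 2.52 to 3.01 TPM in 35S::*FCA* and 1.83 to 5.05 TPM in Col-0. Embryo markers summed to 267.3 to 276.5 TPM in Col *FRI*, 294.9 to 372.0 TPM in 35S::*FCA* and 260.2 to 308.4 TPM in Col-0. Seed coat markers summed to 8.61 to 9.10 TPM in Col *FRI*, 9.64 to 11.0 TPM in 35S::*FCA* and 8.08 to 11.9 TPM in Col-0. These sums include *GL2*, which is also expressed in the embryo epidermis and had 3.28 to 3.36 TPM in Col *FRI*. In Col *FRI* against Col-0 its log2 fold change was 0.31, while *BAN* (-0.40), *TT10* (-0.76) and *MUM4* (-0.24) went the other way. None of these passed. In bulk embryos, fewer cells of a type and less RNA per cell cannot be told apart.

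**Figure D1:**
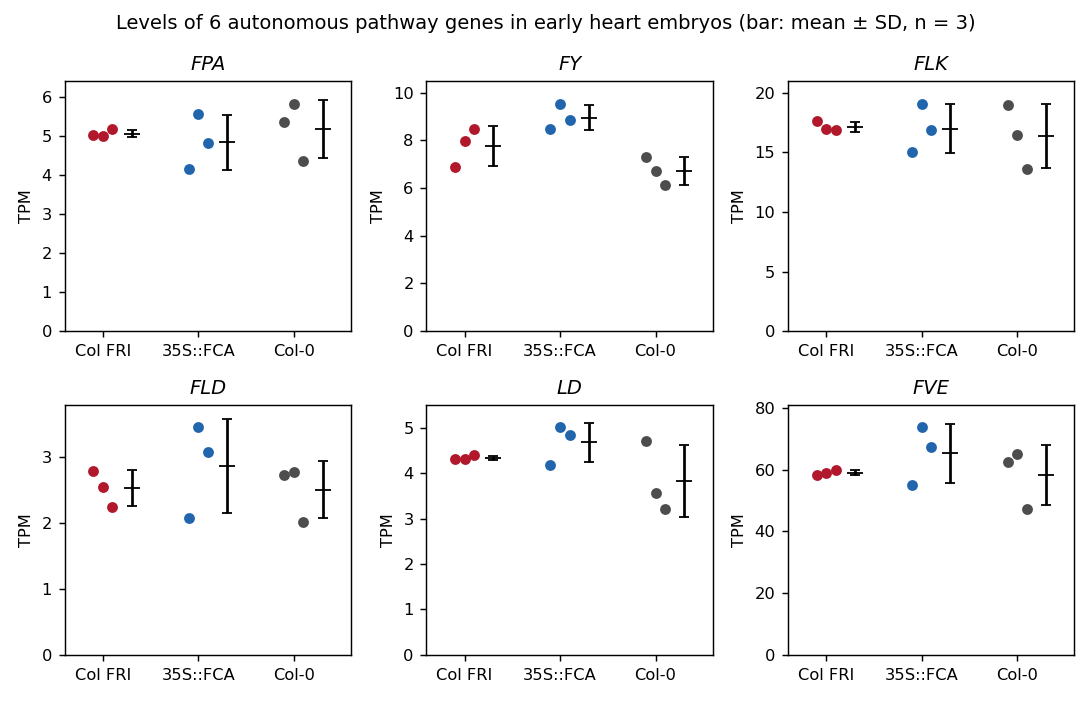
TPM of each of the 6 genes (y axis, starting at 0, with its own scale in each panel) in the 3 libraries of Col *FRI*, 35S::*FCA* and Col-0, drawn as points, with the mean ± SD of each genotype as a black bar. *FY* is the only gene whose 35S::*FCA* points all lie above its Col-0 points, and the Col *FRI* points of *LD*, *FPA* and *FVE* lie close together.

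The order of levels was the same in the 3 genotypes, with *FVE* highest, then *FLK*, *FY*, *FPA*, *LD* and *FLD*. Among 15968 loci with a mean of at least 1 TPM, whose median was 7.24 TPM, *FVE* lay at percentile 89.6, *FLK* at 71.7, *FY* at 52.3, *FPA* at 39.1, *LD* at 34.4 and *FLD* at 20.9. Neighbours in this order had TPM ranges that did not overlap, except *FPA* and *LD*, which overlapped in 35S::*FCA* and in Col-0 but not in Col *FRI*. The highest library exceeded the lowest of all 9 by 1.40-fold for *FLK* and *FPA*, and by 1.72-fold for *FLD*.

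*FPA* had 5.03, 4.996 and 5.18 TPM in Col *FRI*, 4.16, 5.57 and 4.83 TPM in 35S::*FCA*, and 5.37, 5.83 and 4.37 TPM in Col-0. The Col *FRI* values lay inside the range of both other genotypes. Its log2 fold change was 0.02 in Col *FRI* against Col-0 (95% interval -0.14 to 0.18, edgeR adjusted p = 0.884) and -0.17 in 35S::*FCA* against Col-0 (-0.33 to -0.02, edgeR adjusted p = 0.220). Col *FRI* against 35S::*FCA* gave 0.19 (0.03 to 0.35, edgeR adjusted p = 0.104). A fit to only those 6 libraries gave 0.19 with an adjusted p of 0.048 in edgeR, the only setting other than leaving out a library in which a member passed. *FPA* lies on the minus strand of chromosome 2, where the annotation puts the antisense RNA AT2G09470 inside it and the end of *ETFQO* over its edge. Smart-seq2 does not mark strand, so reads from those stretches cannot be told apart.

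*FY* leaned higher in both altered genotypes, without passing the test. It had 6.86, 7.98 and 8.50 TPM in Col *FRI*, 8.48, 9.53 and 8.84 TPM in 35S::*FCA*, and 7.31, 6.70 and 6.11 TPM in Col-0. All 35S::*FCA* libraries were above all Col-0 libraries, while the lowest Col *FRI* library fell among those of Col-0. The ratio of mean TPM was 1.33 in 35S::*FCA* against Col-0 (p = 0.1 in an exact permutation test, two-sided, and no smaller value is possible with 3 libraries against 3) and 1.16 in Col *FRI* against Col-0 (exact permutation p = 0.2). The log2 fold change was 0.34 in 35S::*FCA* against Col-0 (95% interval 0.12 to 0.56, edgeR adjusted p = 0.107), and 0.27 in Col *FRI* against Col-0 (0.05 to 0.49, edgeR adjusted p = 0.0975). These comparisons share the Col-0 libraries. Col *FRI* against 35S::*FCA* gave -0.07 (-0.29 to 0.15).

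*FLK* had 17.6, 16.9 and 16.8 TPM in Col *FRI*, 15.0, 19.1 and 16.9 TPM in 35S::*FCA*, and 19.0, 16.5 and 13.6 TPM in Col-0. Ranges overlapped between all genotypes. The log2 fold change was 0.12 in Col *FRI* against Col-0 (95% interval -0.03 to 0.28), -0.02 in 35S::*FCA* against Col-0 (-0.17 to 0.13) and 0.14 in Col *FRI* against 35S::*FCA* (-0.01 to 0.29).

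*FLD* was the lowest of the chromatin genes and the widest of the 6 over all 9 libraries, whereas within Col-0 the coefficient of variation of TPM was 17.1% for *FLD* and 20.5% for *LD*. It had 2.79, 2.54 and 2.25 TPM in Col *FRI*, 2.07, 3.45 and 3.08 TPM in 35S::*FCA*, and 2.73, 2.78 and 2.01 TPM in Col-0, resting on 137 to 284 counts per library. The ranges overlapped between all genotypes, and no interval excluded 0. The log2 fold change was 0.08 in Col *FRI* against Col-0 (95% interval -0.21 to 0.36), 0.11 in 35S::*FCA* against Col-0 (-0.17 to 0.39) and -0.03 in Col *FRI* against 35S::*FCA* (-0.32 to 0.25).

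*LD* had 4.31, 4.32 and 4.39 TPM in Col *FRI*, 4.19, 5.01 and 4.84 TPM in 35S::*FCA*, and 4.71, 3.57 and 3.20 TPM in Col-0. Col-0 replicate 1 stood inside the range of 35S::*FCA* and above Col *FRI*, and the other Col-0 libraries lay below both. The log2 fold change was 0.22 in Col *FRI* against Col-0 (95% interval 0.0028 to 0.43, edgeR adjusted p = 0.162), 0.20 in 35S::*FCA* against Col-0 (-0.01 to 0.41, edgeR adjusted p = 0.280) and 0.01 in Col *FRI* against 35S::*FCA* (-0.20 to 0.22). Without Col-0 replicate 1, *LD* reached 0.32 in Col *FRI* against Col-0 and passed (edgeR adjusted p = 0.046), and the adjusted p ran up to 0.356 when other libraries were left out. *LD* lies on chromosome 4 of TAIR10.1 at 1123475 to 1128490, 852.0 kb from *FRI*.

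*FVE* had 58.2, 59.0 and 59.8 TPM in Col *FRI*, 54.9, 73.6 and 67.5 TPM in 35S::*FCA*, and 62.4, 65.0 and 47.2 TPM in Col-0. The Col *FRI* libraries differed by less than the others and lay inside both other ranges. The log2 fold change was 0.08 in Col *FRI* against Col-0 (95% interval -0.07 to 0.23), 0.09 in 35S::*FCA* against Col-0 (-0.06 to 0.24) and -0.01 in Col *FRI* against 35S::*FCA* (-0.16 to 0.14). Its counts were whole numbers (within 0.001) in 5 of 9 libraries, as were those of *FPA*, so in the remaining libraries some reads were divided with other loci.

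**Figure D2:**
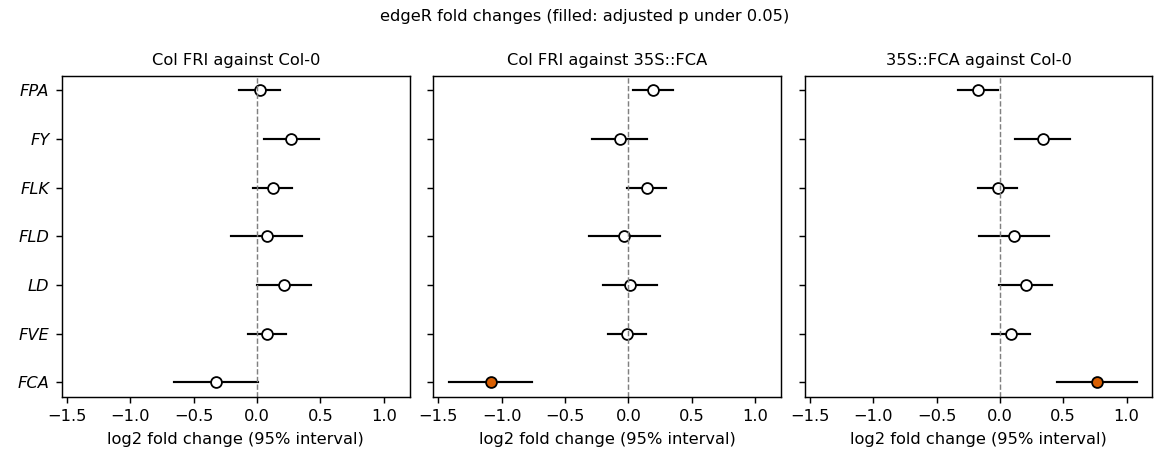
Log2 fold change from edgeR (x axis) of the 6 genes and of *FCA* for Col *FRI* against Col-0, Col *FRI* against 35S::*FCA* and 35S::*FCA* against Col-0, with bars for the 95% interval and filled points for an adjusted p under 0.05. The points of all 6 genes are open, and *FCA* is filled in the comparisons that include 35S::*FCA*.

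Set against all genes, 0 of the 6 passed in Col *FRI* against Col-0, where 13.3% of 18585 genes passed, 0 of the 6 in Col *FRI* against 35S::*FCA*, where 12.9% passed, and 0 of the 6 in 35S::*FCA* against Col-0, where 1.52% passed. DESeq2 also called 0 of the 6 in each comparison, where it called 12.9, 13.2 and 3.45% of all genes in the same order. Limma on log2 TPM called 0 of the 6 too, but few genes at all. Its shares were 2.22 to 2.35%, 4.81 to 4.87% and 0.305 to 0.339% in that order. At an unadjusted edgeR p under 0.05 there were 2 (*FY* and *LD*) in Col *FRI* against Col-0, where 30.0% of genes did so, 1 (*FPA*) in Col *FRI* against 35S::*FCA*, where 29.7% did, and 2 (*FPA* and *FY*) in 35S::*FCA* against Col-0, where 18.8% did. The median log2 fold change of the 6 was 0.10 in Col *FRI* against Col-0, beside -0.01 over all genes tested, and all 6 were above 0, as were 49.1% of all genes. It was 0.10 in 35S::*FCA* against Col-0, beside -0.01 over all genes, with 4 above 0 (48.0% of all genes), and these comparisons share the Col-0 libraries. In Col *FRI* against 35S::*FCA* it was 4.68e-05, beside -0.01 over all genes, with 3 above 0 (48.9% of all genes).

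Counted by TPM ranges, 0 of the 6 did not overlap between Col *FRI* and Col-0 (26.0% of 15968 loci), 0 between Col *FRI* and 35S::*FCA* (36.0%) and 1, *FY*, between 35S::*FCA* and Col-0 (9.26%). On nuclear TPM the number was 4 (*FY*, *FLK*, *LD* and *FVE*) between Col *FRI* and Col-0, where 37.4% of 15458 loci did not overlap. It was 2 (*FPA* and *FLK*) between Col *FRI* and 35S::*FCA* (36.1%) and 1 (*FY*) between 35S::*FCA* and Col-0 (14.8%). The nuclear share of TPM, given above, moves these counts.

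The pooled replicate spread of each of the 6 genes was below the median over all genes, but the spread within a genotype was not always so. The gene-wise biological coefficient of variation in the edgeR fit was 0.074 for *FPA* and *FLK*, 0.076 for *FVE*, 0.091 for *LD*, 0.093 for *FY* and 0.111 for *FLD*, against a median of 0.122 over all genes tested. Within Col *FRI* the SD of log2 CPM was 0.15 for *FY* and 0.16 for *FLD*, above the median of 0.093 over all genes, and within 35S::*FCA* that of *FLD* was 0.18, above the median of 0.15. The remaining values in these genotypes, and all 6 in Col-0 (median 0.19 over all genes), were below it.

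Transcript models were read next, since several of these genes act in RNA processing. *FPA* has 4 models in the index, and *FY* and *LD* have 2 each, while *FLK*, *FLD* and *FVE* have 1. The longest coding stretch in which models 1 and 2 differ is printed for *FPA* and for *FY* from the minus strand of the RefSeq TAIR10.1 genome, as 5′ to 3′ RNA-sense sequence. Model 2 of *FPA* holds 129 bases (43 codons) at chr2:18028320-18028448 that model 1 splices out, with the first and last pair of bases of the stretch in capitals.
FPA model 2 stretch: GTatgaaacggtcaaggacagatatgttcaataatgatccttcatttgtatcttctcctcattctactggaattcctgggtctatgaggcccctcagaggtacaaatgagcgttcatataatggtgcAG
Model 2 of *FY* holds 69 bases (23 codons) at chr5:4330984-4331052 that model 1 lacks, with the final pair in capitals, where the intron of model 1 ends.
FY model 2 stretch: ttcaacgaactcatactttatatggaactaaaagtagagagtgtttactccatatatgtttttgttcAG
The *FPA* stretch starts with GT and ends with AG, the pair that most introns carry at their ends, and the length of both stretches is a multiple of 3. The *FY* models also differ by 3 coding bases at chr5:4326695-4326697 and by a 96-base stretch with 26 coding bases at chr5:4331532-4331627, both in model 1 and not in model 2, and the coding region is 1974 bases long in model 2 and 1944 bases in model 1. The *LD* models share a coding region of 2862 bases and differ by a 113-base stretch in the 5′ untranslated region (chr4:1128269-1128381), kept in model 1 and spliced out of model 2. In RefSeq, *FPA* models 3 and 4 differ from model 2 only outside the coding region, where model 4 keeps 798 bases that model 2 splices out. The models in the index differ in length from these. *FY* model 1 has 2539 bases in RefSeq and 2196 in the index, and model 2 has 2493 and 2496. *FPA* model 4 has 3829 and 3497. The RefSeq stretches therefore do not fully describe what separates the counted models of *FY*, or *FPA* model 4 from the others.

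*LD* model use varied most. Model 2 of *LD* made up 19.9, 59.5 and 74.9% of the TPM of the gene in Col *FRI*, 53.2, 3.77 and 49.4% in 35S::*FCA*, and 0.121, 11.4 and 9.70% in Col-0. All Col *FRI* libraries lay above all Col-0 libraries, while 35S::*FCA* replicate 2 fell among those of Col-0. The mean share was 51.5% ± 28.4 in Col *FRI* (SD, n = 3), 35.5% ± 27.5 in 35S::*FCA* (SD, n = 3) and 7.08% ± 6.09 in Col-0 (SD, n = 3), and the exact permutation p of Col *FRI* against Col-0 was 0.1, the smallest possible. The isoform usage test of edgeR gave an adjusted p of 0.124 in Col *FRI* against Col-0 (unadjusted 0.00517, over 3679 genes with more than 1 model), 0.809 in Col *FRI* against 35S::*FCA* and 0.424 in 35S::*FCA* against Col-0 (unadjusted 0.0208). The widest range within a genotype, 55.0 percentage points, lay at percentile 97.0 of 2904 loci with 2 models and a mean of at least 100 counts, whose median was 8.20 points. The lengths of the models in the index differ by these 113 bases, so reads in or across the stretch decide between them, and their number was not given in the sources used here.

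*FPA* and *FY* model shares overlapped between genotypes. Model 1 of *FPA*, the spliced form, took 30.3, 20.7 and 46.1% in Col *FRI*, 4.33, 47.1 and 31.3% in 35S::*FCA*, and 35.8, 38.6 and 22.2% in Col-0. Model 2 took 41.5 to 68.1% in Col *FRI*, 37.8 to 85.3% of the 35S::*FCA* TPM and 51.5 to 57.7% of that of Col-0, so that it led in most libraries. Model 4 took 9.91 to 20.0% over the 9 libraries, and model 3 was at 0 in 7 of them. For *FY*, model 2 took 34.5, 40.4 and 30.0% in Col *FRI*, 31.4, 22.2 and 33.5% in 35S::*FCA*, and 29.9, 29.1 and 33.0% in Col-0. Model 1 of *FY*, which lacks the 69-base stretch in RefSeq, took the larger share in every library. The adjusted p of model use lay between 0.976 and 0.997 for *FPA* and between 0.591 and 0.997 for *FY* over the 3 comparisons (edgeR).

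By edgeR, 0 of the 3 genes with several models passed the isoform usage test in Col *FRI* against Col-0, where 1.85% of 3679 genes passed, 0 of 3 in Col *FRI* against 35S::*FCA* (2.15%) and 0 of 3 in 35S::*FCA* against Col-0 (0.435%). At an unadjusted p under 0.05, *LD* alone did so in Col *FRI* against Col-0 (14.8% of genes) and in 35S::*FCA* against Col-0 (8.34%), and none in Col *FRI* against 35S::*FCA* (14.6%). No other tool was run for model use.

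**Figure D3:**
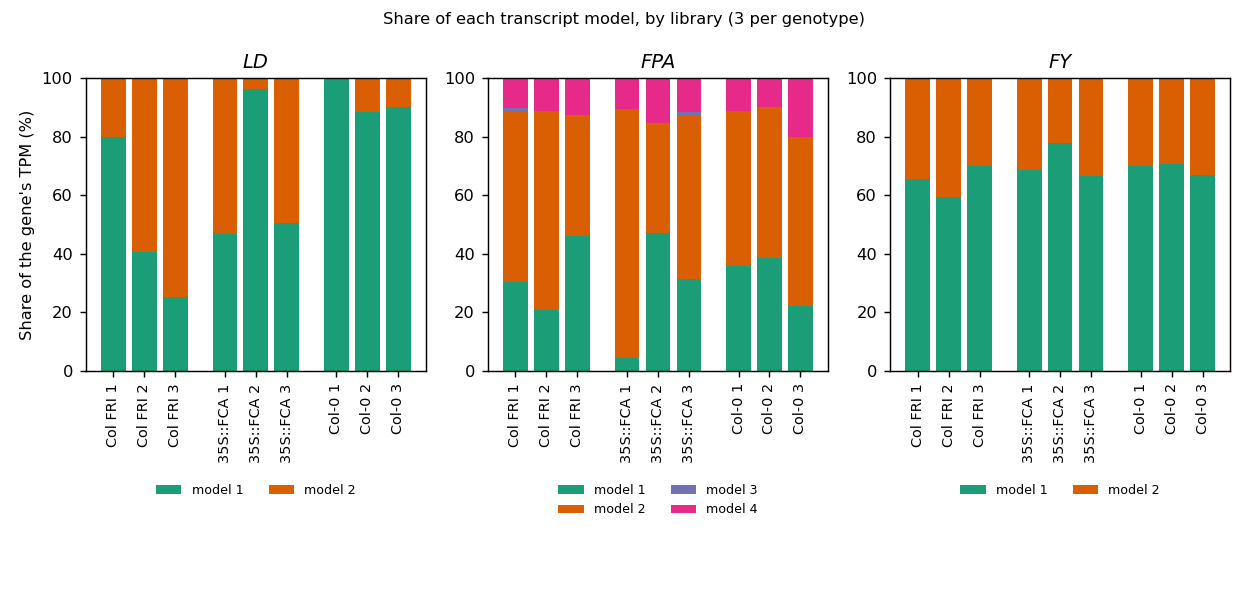
Share of the TPM of *LD*, *FPA* and *FY* taken by each transcript model (y axis, percent, stacked to 100) in each of the 9 libraries, Col *FRI* left, 35S::*FCA* in the middle and Col-0 right. *LD* model 2 spans 3.77 to 53.2% within 35S::*FCA* and 0.121 to 11.4% within Col-0.

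Partners of these genes were read from a list of 29, which holds *FCA*, subunits of the cleavage and polyadenylation complex, and other RNA-processing and chromatin factors that act on *FLC*. It also holds the *FVE* paralogues and a group of KH-domain genes and *FLC* activators (*PEP*, *HUA2* and *HEN4*). All 29 passed the filter on low counts. In Col *FRI* against Col-0, 2 were higher and 3 lower (13.3% of all genes passed). In Col *FRI* against 35S::*FCA*, 0 were higher and 2 lower (12.9%). In 35S::*FCA* against Col-0, 1 was higher, *FCA* itself, and 0 were lower (1.52%). The numbers at an unadjusted edgeR p under 0.05 were 10 of 29 in Col *FRI* against Col-0 (30.0% of all genes), 10 in Col *FRI* against 35S::*FCA* (29.7%) and 4 in 35S::*FCA* against Col-0 (18.8%), which is near the share over all genes in each. The median log2 fold change of the list was 0.02 in Col *FRI* against Col-0, -0.13 in Col *FRI* against 35S::*FCA* and 0.04 in 35S::*FCA* against Col-0, beside -0.01 over all genes in each. Of the 8 cleavage and polyadenylation subunits that work with *FY*, 0 passed in each comparison by edgeR, and 2 had an unadjusted p under 0.05 in Col *FRI* against Col-0 (30.0% of all genes), 3 in Col *FRI* against 35S::*FCA* (29.7%) and 0 in 35S::*FCA* against Col-0 (18.8%).

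*REF6*, which encodes a histone H3 lysine 27 demethylase, had 7.93, 8.09 and 7.51 TPM in Col *FRI* and 6.31, 6.17 and 6.02 TPM in Col-0, with a log2 fold change of 0.39 (95% interval 0.20 to 0.59, edgeR adjusted p = 0.0179). *SUS2*, also called *PRP8A*, which encodes a core spliceosome protein, had 12.0, 13.3 and 12.9 TPM in Col *FRI* and 11.0, 11.0 and 10.01 TPM in Col-0, with 0.30 (0.12 to 0.48, edgeR adjusted p = 0.0363). Both were higher in all Col *FRI* libraries than in any Col-0 library. *SKB1*, also called *PRMT5*, an arginine methyltransferase gene, had 14.0, 12.5 and 14.0 TPM in Col *FRI*, 16.1, 19.8 and 19.6 TPM in 35S::*FCA*, and 22.3, 21.2 and 14.9 TPM in Col-0. Its log2 fold change was -0.46 in Col *FRI* against Col-0 (edgeR adjusted p = 0.00933) and -0.32 in Col *FRI* against 35S::*FCA* (edgeR adjusted p = 0.0338).

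*NFC5*, also called *MSI5*, a close paralogue of *FVE*, had 5.49, 5.42 and 5.91 TPM in Col *FRI* and 8.75, 9.53 and 6.48 TPM in Col-0, with a log2 fold change of -0.50 (95% interval -0.77 to -0.23, edgeR adjusted p = 0.0263). *CDKC2*, which encodes a kinase of the RNA polymerase II tail, had 16.6, 18.2 and 17.4 TPM in Col *FRI* and 22.8, 21.4 and 18.6 TPM in Col-0, with -0.22 (-0.36 to -0.08, edgeR adjusted p = 0.0456). All Col *FRI* libraries of these genes were below all Col-0 libraries. These calls, and those of *REF6*, *SUS2* and *SKB1*, depended on single libraries and on the processing. Leaving out any 1 of the 3 Col *FRI* libraries ended the calls of *REF6* (adjusted p up to 0.0815), *NFC5* (up to 0.103), *SUS2* (up to 0.142) and *CDKC2* (up to 0.170). Without Col-0 replicate 1 the adjusted p was 0.0566 for *REF6*, 0.0537 for *NFC5*, 0.105 for *SUS2* and 0.0952 for *CDKC2*, and without Col-0 replicate 2 it was 0.0636 for *NFC5*, 0.0772 for *SUS2* and 0.0508 for *CDKC2*. Of the 35S::*FCA* libraries, replicate 3 ended the calls of *SUS2* (0.0694) and *CDKC2* (0.0831), and replicate 2 that of *CDKC2* (0.0635). *SKB1* in Col *FRI* against Col-0 was lost only without Col *FRI* replicate 2 (0.0559), and against 35S::*FCA* without any 1 library of either genotype (0.0539 to 0.145). Of the settings that kept every library of the genotypes compared, limma on log2 TPM ended the 5 calls against Col-0 and that of *SKB1* against 35S::*FCA* (adjusted p 0.169 to 0.372). *CDKC2* was also lost in DESeq2 (adjusted p = 0.0653), with no filter on low counts (0.104) and in edgeR with only the 6 libraries compared (0.0691), and *SUS2* with no filter (0.0528). In the fit with a replicate block the adjusted p was 0.0939 for *CDKC2*, 0.0709 for *SUS2* and 0.0541 for *SKB1* against 35S::*FCA*. *CDKC2* passed in 5 of 18 alternatives in all and *SUS2* in 8, while the directions held in every one. Among embryo markers, *ABI3* was higher in Col *FRI* than in Col-0 (0.45) and *WOX5* lower (-0.81) in the same fit, and the part of marker differences in these results was not tested.

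*FCA* had 1.80, 1.95 and 2.35 TPM in Col *FRI*, 4.06, 4.22 and 4.12 TPM in 35S::*FCA*, and 2.52, 2.11 and 2.37 TPM in Col-0. The 35S::*FCA* libraries stood above all others. Its log2 fold change of 0.76 in 35S::*FCA* against Col-0 had an adjusted p under 0.05 in 6 of 18 alternatives. It was 0.157 in edgeR with only the 6 libraries compared, 0.0539 on length-scaled counts, 0.0661 and 0.0559 in limma on log2 TPM plus 0.1 and plus 1, and 0.0717 with a replicate block. It was 0.139 without 35S::*FCA* replicate 3 and also above 0.05 without 35S::*FCA* replicate 2 (0.0640), Col-0 replicate 1 (0.0720) or 2 (0.0702), or any 1 Col *FRI* library (0.0612 to 0.0753), while Col *FRI* against 35S::*FCA*, -1.09, passed in 18 of 18 (edgeR adjusted p = 0.0016). Outside the naming rule and chosen after its values were seen, *CCR1*, also called *GRP8*, the gene of a glycine-rich RNA-binding protein, had the lowest log2 fold change of the list in 35S::*FCA* against Col-0, -0.74 (95% interval -1.09 to -0.38, edgeR adjusted p = 0.0547). It had 97.7, 106 and 107 TPM in 35S::*FCA* and 188, 212 and 107 TPM in Col-0. On this scale Col-0 replicate 3 stood beside the transgenic libraries. The nuclear share of TPM was 51.9% in that library and 65.3 to 68.9% in 35S::*FCA*, which lowers its TPM relative to theirs. Nuclear TPM is not given for this gene, so the overlap may not hold on that scale.

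The *FVE* family covered a wide range of levels. *FVE* averaged 59.0 ± 0.826 TPM in Col *FRI*, 65.3 ± 9.53 TPM in 35S::*FCA* and 58.2 ± 9.63 TPM in Col-0 (SD, n = 3 each). *MSI2* averaged 43.9 ± 0.214 TPM in Col *FRI*, 53.0 ± 9.85 TPM in 35S::*FCA* and 45.1 ± 5.92 TPM in Col-0 (SD, n = 3 each). *MSI1*, which is also a Polycomb subunit, averaged 28.1 ± 0.213 TPM in Col *FRI*, 32.3 ± 6.85 TPM in 35S::*FCA* and 32.1 ± 5.97 TPM in Col-0. *MSI3* averaged 22.5 ± 0.984 TPM in Col *FRI*, 24.4 ± 3.61 TPM in 35S::*FCA* and 22.2 ± 2.15 TPM in Col-0. *FVE* was thus the highest of the family in mean TPM in each genotype, and *NFC5* the lowest. *MSI1*, *MSI2* and *MSI3* did not pass in any comparison.

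**Figure D4:**
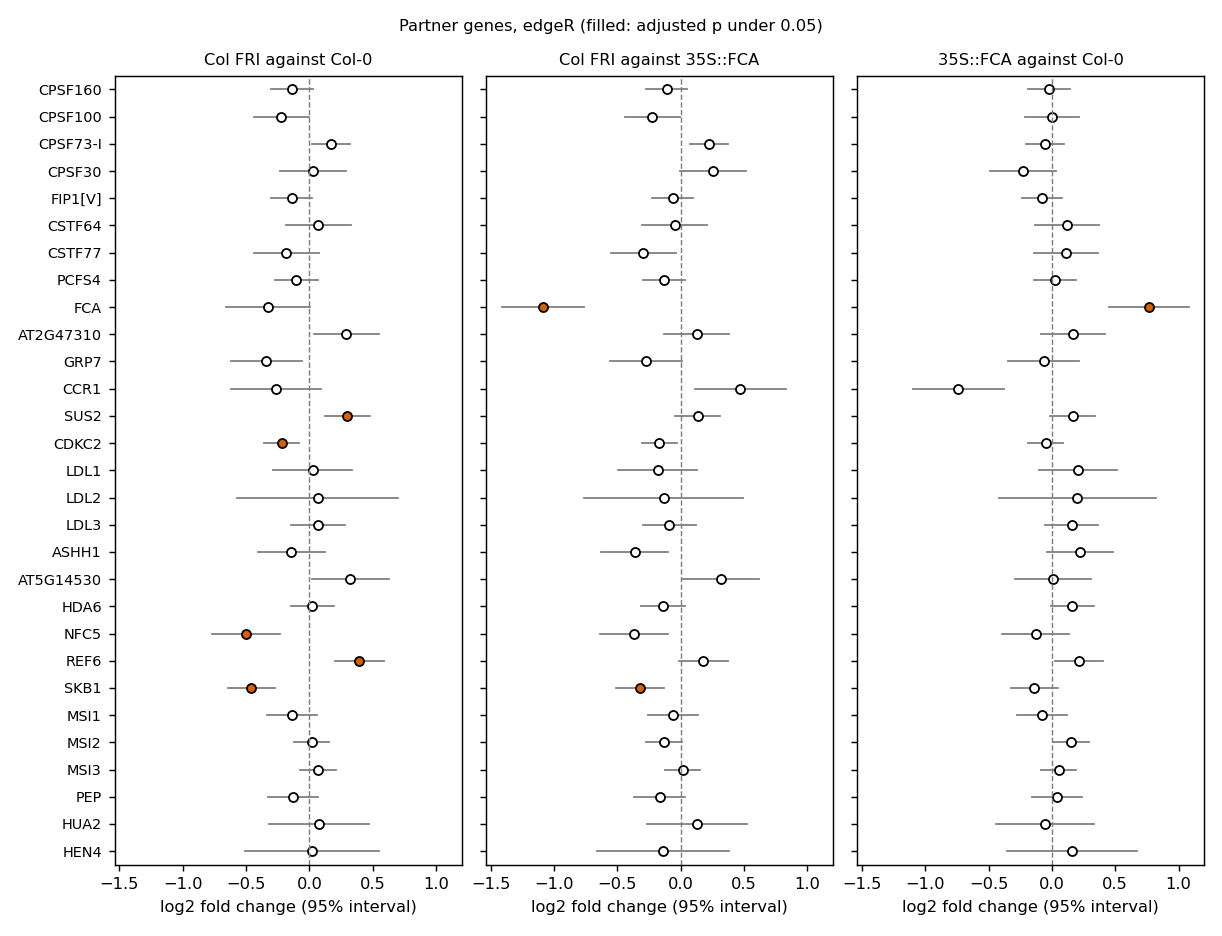
Log2 fold change from edgeR (x axis, bars for the 95% interval) of the 29 partner genes, named as in RefSeq, for the same 3 comparisons, with filled points for an adjusted p under 0.05. In Col *FRI* against Col-0 the filled points are *SUS2* and *REF6* on the right of 0 and *CDKC2*, *NFC5* and *SKB1* on the left.

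Of 9 partners with several models that could be tested, 1, *FCA*, passed the isoform usage test in Col *FRI* against Col-0 (edgeR adjusted p = 0.000332, 1.85% of all genes with several models passing) and 1, again *FCA*, in 35S::*FCA* against Col-0 (edgeR adjusted p = 0.000236, 0.435% passing), and 0 passed in Col *FRI* against 35S::*FCA* (2.15%). At an unadjusted p under 0.05 there were 4 of 9 in Col *FRI* against Col-0 (14.8% of all such genes), which were *FCA*, *SKB1* (0.0022), *CDKC2* (0.00637) and *ASHH1* (0.0183), also called *SDG26*, a histone methyltransferase gene named here after its values were seen. There was 1, *SKB1*, in Col *FRI* against 35S::*FCA* (14.6%) and 1, *FCA*, in 35S::*FCA* against Col-0 (8.34%).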

How the data were processed

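Early heart embryos of Col *FRI*, 35S::*FCA* and Col-0 (3 libraries each, Smart-seq2, paired 75-nt reads, 2 sequencing runs) were analysed from kallisto output. The authors deposited an estimated count and a TPM per transcript, with TAIR10 named in the processing notes and the kallisto version and strand setting not given in the sources used here. TPM was scaled by the authors over all entries, organelle and ribosomal ones included.

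Estimated counts were summed per locus, rounded and tested with the quasi-likelihood F test of edgeR 4.0.16 under R 4.3.3 (TMM factors, filterByExpr, all 9 libraries, genotype as the factor). Model use was tested with diffSpliceDGE. DESeq2 1.42.0, limma 3.58.1 (log2 TPM plus 0.1 or 1), other normalization and filters, length-scaled counts, the 6 libraries compared, a replicate block and each library left out were alternatives. TPM and shares were compared by exact permutation. Functions were tested on simulated data. Nuclear TPM left out organelle, ribosomal and small RNA genes and loci within 5 kb of ribosomal RNA genes. Sequences and positions are RefSeq, TAIR10.1.

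The members, the partner list and the markers were chosen with earlier results of these data known. All 6 members and every partner past the test in a comparison were named, with symbols as in RefSeq.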

Additional observations from a re-analysis of the deposited data

How the results depend on the processing

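The number of members past the gene-level test was 0 in every setting except 2. It was 1 (*LD*) in Col *FRI* against Col-0 without Col-0 replicate 1, where 8.32% of all genes passed, so that leaving out single libraries gave 0 to 1, and 1 (*FPA*) in Col *FRI* against 35S::*FCA* with only the 6 libraries compared, where 24.9% of all genes passed. The number past the isoform usage test was 0 in every setting. Values near 0 changed sign. In limma on log2 TPM plus 0.1 and plus 1, the log2 fold change of *FLK* in 35S::*FCA* against Col-0 was 0.061 and 0.058, that of *FPA* in Col *FRI* against Col-0 -0.024 and -0.022, and that of *LD* in Col *FRI* against 35S::*FCA* -0.10 and -0.086. In the last comparison the median over all genes moved to -0.13 and -0.11 in those fits. With single libraries left out, *FLK* ran from -0.046 to 0.035 in 35S::*FCA* against Col-0, *FPA* from -0.016 to 0.069 and *FLD* from -0.011 to 0.16 in Col *FRI* against Col-0, and *FY* from -0.13 to 0.013, *FLD* from -0.13 to 0.048 and *LD* from -0.0096 to 0.041 in Col *FRI* against 35S::*FCA*. On nuclear TPM the ratio of mean TPM in Col *FRI* against 35S::*FCA* moved to 0.989 for *FY*, 1.15 for *FLK* and 1.06 for *LD*. It crossed 1 for *LD*, and also for *FVE* (1.03) and *FLD* (1.01) in that comparison, for *FLK* in 35S::*FCA* against Col-0 (0.974) and for *FPA* in Col *FRI* against Col-0 (1.04). Nuclear TPM divides TPM by the nuclear share of each library, so these moved ratios follow from those shares. Why the shares differ, and the cause of the other changes of sign, were not tested.

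The share of all genes called, which serves as the background, depended on the setting. At an adjusted p under 0.05 the number of genes ran from 393 to 4139 in Col *FRI* against Col-0 (2464 in the fit reported), from 850 to 4478 in Col *FRI* against 35S::*FCA* (2402) and from 8 to 1608 in 35S::*FCA* against Col-0 (283). With the stricter threshold (adjusted p below 0.001, fold above 2) it was 34, 104 and 1 in the same order. The replicate numbers were not taken to pair samples. Deviations from the genotype means had correlations of -0.11 to 0.27 over 9 same-numbered pairs, beside -0.33 to 0.27 between libraries of different number. With the replicate block, 0 members passed in each comparison, and 1762, 1965 and 97 genes passed in the order above. Partner genes were run through the same settings after seeing the data.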

Other observations

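For each member, the genes tested whose log2 CPM was most alike over the 9 libraries were listed by Pearson correlation, with no test. They were AT1G55210 (0.96) and *J11* (0.96) for *FPA*, AT4G08960 (0.95) and AT1G80020 (0.94) for *FY*, AT4G33870 (0.98) and AT4G08310 (0.97) for *FLK*, AT4G15450 (0.93) and *ABCG7* (0.93) for *FLD*, *QPT* (0.97) and *EXL5* (0.97) for *LD*, and AT4G21170 (0.97) and AT1G16700 (0.97) for *FVE*. Between 5 (*FLD*) and 65 (*FPA*) of 18584 genes had a correlation above 0.9 with a member. The points share genotype and library, so these are descriptions of the 9 libraries.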
